A study of Homo sapiens with 12 samples.

Results

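The proteasome is the protease complex that degrades ubiquitin-tagged proteins. Its subunit genes were taken from the mRNA-seq table by symbol, as all rows named PSMA, PSMB, PSMC, PSMD, PSME, PSMF or PSMG followed by a number. PSMB8, PSMB9 and PSMB10 of the interferon-inducible immunoproteasome were left out of this set and are given apart. The rule found 45 of 20003 genes. They comprise 16 core genes (PSMA and PSMB), 24 regulatory genes (PSMC, PSMD and PSME) and 5 genes for an inhibitor and assembly factors (PSMF1 and PSMG). Expression was measured in NB4, an acute promyelocytic leukemia cell line with the PML-RARα fusion, and in Kasumi-1, derived from AML and carrying the fusion AML1-ETO. Each line has 3 controls that received DMSO and 3 samples with OGP46, a diterpenoid made from oridonin, at 1 μM for 48 h by the labels, while one passage of the study names a longer incubation. The values are FPKM, fragments scaled to exon length and to the total of mapped fragments. Both lines grow as established cultures, and the labels do not say whether the 3 samples of a group were separate cultures. The study describes its experiments as repeated independently without tying that to single samples, so p-values measure the spread between these samples.

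The core particle is a barrel of alpha rings and beta rings, and the beta rings hold the proteolytic sites. PSMB5 carries the chymotrypsin-like site, PSMB6 the caspase-like site and PSMB7 the trypsin-like site, and PSMB5 is the main target of bortezomib. The regulatory particle caps the barrel, where the PSMC proteins form an ATPase ring that unfolds substrates and some PSMD proteins bind or trim ubiquitin chains. Other PSMD genes encode scaffolds or assembly chaperones. PSME proteins form other caps that work without ATP. The subunit genes are transcribed in most cells, and NFE2L1 (NRF1) raises them together when proteasome activity is blocked.

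The FPKM of all genes summed to 248207 to 256268 in the NB4 controls and to 263341 to 291523 in NB4 cells with OGP46. The sum was 279879 to 310262 in the Kasumi-1 controls and 279802 to 296455 in Kasumi-1 cells with OGP46. The sequencing depth is unknown. The lines matched their labels in that CD34 and KIT reached at most 1.31 and 1.22 FPKM in NB4 samples and at least 91.4 and 110.02 FPKM in Kasumi-1 samples. The highest values of both genes in NB4 were in control 3, where the 6 Kasumi-1 markers summed to 3.87 FPKM against 0.737 and 1.54 FPKM in the other NB4 controls. HGF, CD33 and MPO, listed as genes of the promyelocytic line, were not higher in NB4, and DEFB1 was listed at 0 in every Kasumi-1 sample. Of these 4 genes, 2 were lower and 1 higher in the NB4 controls than in the Kasumi-1 controls by limma. The rule was an adjusted p below 0.05 with a log2 difference of 0.58 or more. Of all genes, 29.7% were lower and 22.7% higher by it. In bulk samples, fewer cells of a type and less RNA per cell cannot be told apart.

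Proteasome genes were among the highly expressed genes of both lines. Of the 45 genes, 42 had a mean of at least 5 FPKM in each group. Their median stood at percentile 92.5 of the genes tested in the NB4 controls and at percentile 91.9 in the Kasumi-1 controls. PSMA8, an alpha form of the testis, was listed at 0 in every sample. PSMB11, the beta form of the thymus, was listed at 0 in all but 1 Kasumi-1 control with 0.0263 FPKM. These are the tissue-restricted members of the set, and both were left out of the tests by the filter of a mean of 0.1 FPKM. The remaining 43 genes were tested in every comparison. PSMG4, a core assembly chaperone, was the lowest of them, with 0.899 FPKM in the NB4 controls and 0.618 FPKM in the Kasumi-1 controls.

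Subunits that take part in one complex did not have equal mRNA levels. Among the core genes of the NB4 controls, PSMB1 had the highest mean, 236 FPKM ± 20.3 (SD, n = 3), and PSMA5 the lowest, 23.2 FPKM ± 2.19. In the Kasumi-1 controls, PSMB4 was the highest core gene with 214 FPKM ± 17.2 and PSMA5 again the lowest with 24.3 FPKM ± 1.65. Core genes were higher per length than regulatory genes, with medians of 95.5 FPKM over 14 core genes and 44.5 FPKM over 24 regulatory genes in the NB4 controls. The corresponding medians were 93.9 and 33.3 FPKM in the Kasumi-1 controls. The ATPase genes lay in a narrow band in NB4 controls, from 22.7 FPKM for PSMC6 to 47.0 FPKM for PSMC5. The non-ATPase genes ran from 11.7 FPKM for PSMD5, an assembly chaperone, to 82.2 FPKM for PSMD3, a lid subunit. Among the activators PSME4 was lowest with 13.3 FPKM and PSME3 highest with 54.0 FPKM.

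**Figure D1:**
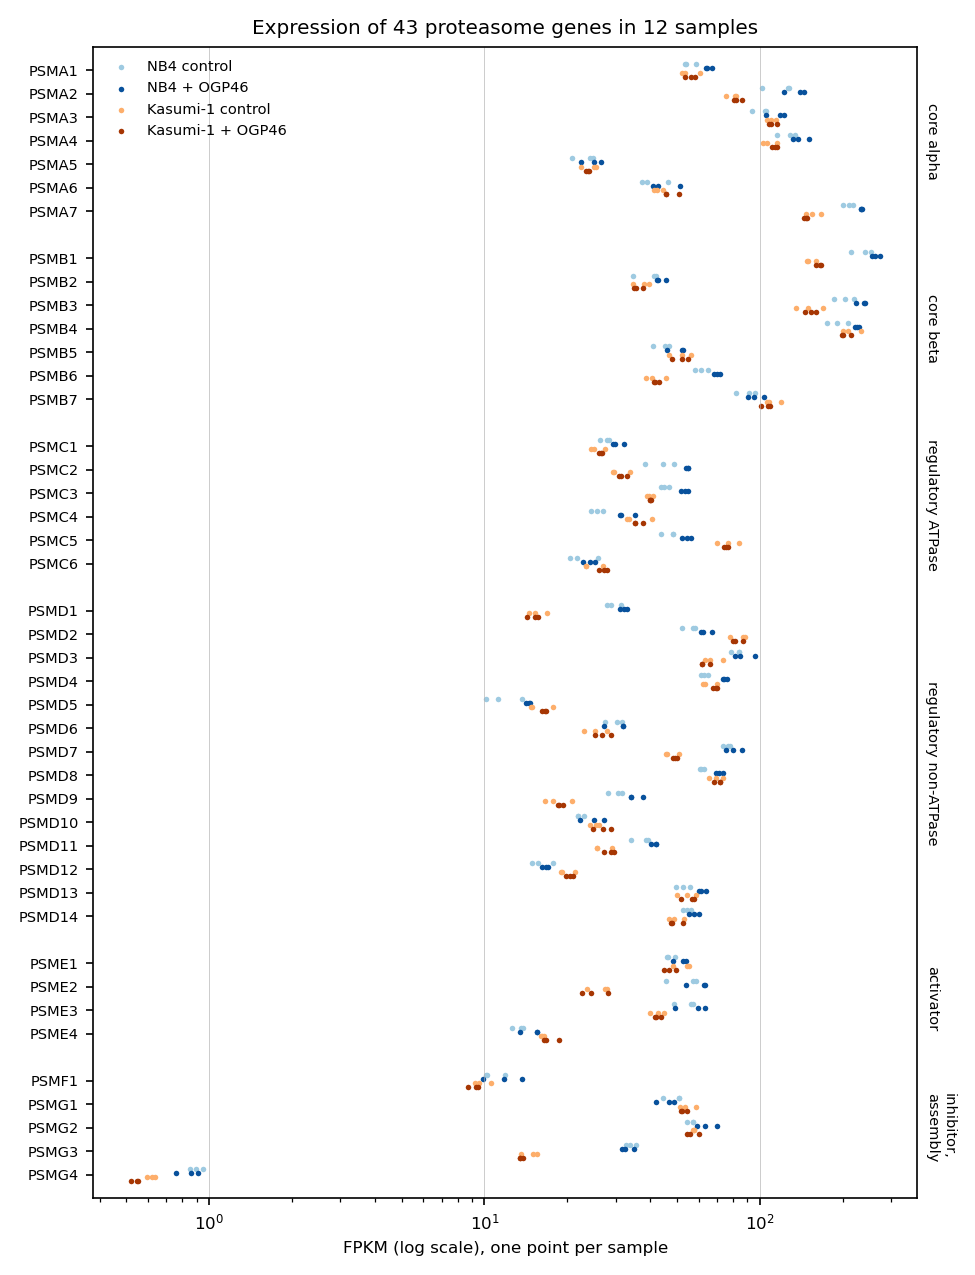
FPKM of the 43 tested proteasome genes on a log axis, 1 point per sample, coloured by cell line and treatment and ordered by class. Most genes lie above 10 FPKM with the 12 samples close together, PSMG4 lies below 1 FPKM, and for PSMG3, PSMD1 and PSME2 the NB4 points lie apart from the Kasumi-1 points.

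Incubation with OGP46 was first compared with the control within NB4 cells. No proteasome gene was up- or down-regulated by limma when both an adjusted p below 0.05 and a log2 change of 0.58 in size were required, where 1.56% of the 11750 genes tested were. None passed at any fold change either, against 2.57% of all genes. At an unadjusted p below 0.05, 15 of 43 genes were higher with OGP46 and none was lower, or 34.9% of the set. Of all genes 29.1% passed this unadjusted threshold, 27.5% higher. Of the 43 genes, 40 had a log2 fold change above 0, and so had 81.9% of all genes. The median log2 fold change was 0.15 over the proteasome genes and 0.18 over all genes tested, so the proteasome genes stood 0.03 below the shift of the whole table. This shift rests on the scale of the FPKM values. Relative to it the proteasome median stood 0.02 higher after quantile normalization, with a pseudocount of 1 or with no filter. Scaling the samples to one sum or centring them on their median left it at -0.03. These 2 scalings move the genes of a sample almost alike, so they could hardly change that value. A pseudocount of 0.01 or a filter of 1 FPKM also gave -0.03, and leaving out 1 sample gave -0.05 to 0.01. The set's median had an SD of 0.06 between the samples of a group. The 95% interval of the log2 fold change lay within ±0.58 for all 43 genes.

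The catalytic subunits followed the same course. PSMB5 (chr14:23025851-23035220, RefSeq positions on GRCh38.p14) measured 45.2, 46.6 and 41.0 FPKM in the NB4 controls and 46.1, 52.2 and 52.7 FPKM with OGP46. Its groups overlapped, and the log2 fold change was 0.18 ± 0.09 (SE), adjusted p = 0.198. PSMB6 (chr17:4796164-4798495) measured 64.8, 61.4 and 58.2 FPKM in the controls and 70.1, 68.1 and 71.8 FPKM with OGP46. All 3 treated samples were above the controls, with a log2 fold change of 0.19 ± 0.07 and adjusted p = 0.137. PSMB7 (chr9:124353465-124415442) measured 91.7, 95.7 and 82.2 FPKM in the controls and 94.97, 104 and 90.8 FPKM with OGP46. Its groups overlapped, with 0.10 ± 0.09 and adjusted p = 0.434.

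The regulatory ATPases had the highest median log2 fold change of the classes in NB4, 0.23 over 6 genes. The median was 0.17 over the 14 core genes, 0.15 over the 14 non-ATPase genes and 0.14 over the 4 activators. It was -0.04 over PSMF1 and the 4 PSMG genes, where PSMG1 had the lowest value of the set, -0.09 ± 0.09. The difference between classes was not tested.

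The 3 genes with the smallest p in NB4 were regulatory genes. PSMC4, an ATPase of the base (chr19:39971165-39981764), measured 26.8, 24.4 and 25.5 FPKM in the controls and 35.2, 31.0 and 31.4 FPKM with OGP46. This was the highest log2 fold change of the set, 0.34 ± 0.08, adjusted p = 0.0662. PSMD4, a ubiquitin receptor, measured 60.9, 64.6 and 62.5 FPKM in the controls and 73.5, 76.2 and 74.0 FPKM with OGP46. Its log2 fold change was 0.25 ± 0.07 with adjusted p = 0.0737. PSMC3, another ATPase, measured 46.6, 43.8 and 45.0 FPKM in the controls and 54.7, 51.8 and 53.5 FPKM with OGP46. Its log2 fold change was 0.24 ± 0.07 with adjusted p = 0.0831. The groups of all 3 genes were apart. PSMD14, the deubiquitinase of the lid, had a log2 fold change of 0.08 ± 0.07 (adjusted p = 0.458). PSMF1, an inhibitor of the core, had 0.13 ± 0.13 (adjusted p = 0.532).

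In all, the 3 treated samples were above the 3 controls in 20 of the 43 genes (46.5%) and below them in none. Over all genes, 32.7% were apart in this direction. When the model held the replicate number as a block, 6 of 43 genes (14.0%) passed at any fold change, all higher, against 22.9% of all genes and 21.0% higher. They were PSMC2, PSMC3, PSMC4, PSMD4, PSMD5 and PSMB4, with adjusted p between 0.0127 and 0.0458, and none reached a log2 fold change of 0.58, against 6.21% of all genes. NB4 control 3 was the lowest of its group in 35 of the 43 genes. Without it the median log2 fold change of the set was 0.11. The part of its Kasumi-1 marker level in this was not tested.

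**Figure D2:**
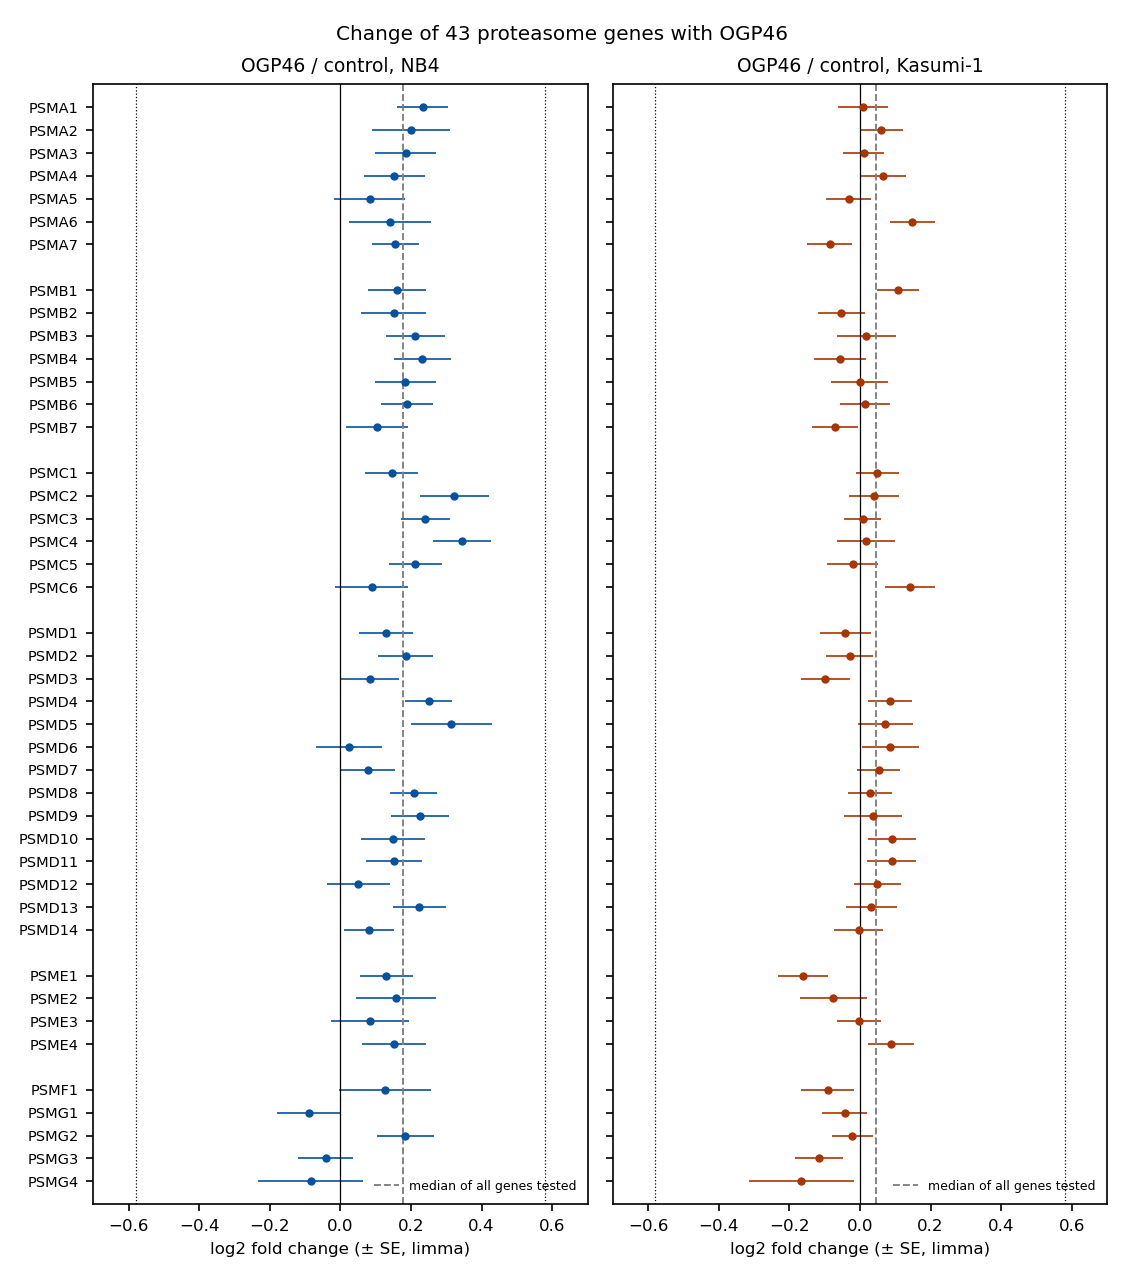
Log2 fold change of OGP46 against control (points, with bars for ± SE by limma) for 43 proteasome genes in NB4 (left) and Kasumi-1 (right), 3 samples per group. The dashed line is the median of all genes tested, 0.18 in NB4 and 0.05 in Kasumi-1, and no point reaches the dotted lines at -0.58 and 0.58.

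In Kasumi-1 cells, proteasome genes stood closer to 0. None passed at an adjusted p below 0.05 at any fold change, where 0.0845% of the 11835 genes tested did (0.0338% when a log2 change of 0.58 was also required). With the replicate block none passed either, against 3.56% of all genes. At an unadjusted p below 0.05, 2 of 43 genes differed, against 15.6% of all genes. The median log2 fold change was 0.01, against 0.05 over all genes tested, and all 43 intervals lay within ±0.58.

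PSMA6, an alpha ring subunit, had the smallest p. It measured 41.4, 44.3 and 42.4 FPKM in the Kasumi-1 controls and 50.8, 45.5 and 45.8 FPKM with OGP46. All 3 treated samples were above the controls, with a log2 fold change of 0.15 ± 0.06 and adjusted p = 0.303. PSME1, the alpha chain of the interferon-inducible activator, measured 48.3, 55.4 and 54.4 FPKM in the controls and 44.7, 47.0 and 49.7 FPKM with OGP46. The groups overlapped, with -0.16 ± 0.07 and adjusted p = 0.312. The ATPase PSMC6 had a log2 fold change of 0.14 ± 0.07, adjusted p = 0.358. The groups were apart in 3 of 43 genes (6.98%), 2 higher and 1 lower, against 22.6% of all genes.

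The catalytic genes gave values near 0 in Kasumi-1. PSMB5 measured 52.2, 56.2 and 46.7 FPKM in the controls and 54.8, 52.3 and 47.8 FPKM with OGP46. PSMB6 measured 40.5, 45.8 and 38.6 FPKM in the controls and 41.2, 43.1 and 41.6 FPKM with OGP46. PSMB7 measured 106, 119 and 108 FPKM in the controls and 109, 107 and 101 FPKM with OGP46. The treated and control samples of all 3 genes overlapped. The log2 fold changes were -0.00, 0.01 and -0.07, with 95% intervals of -0.18 to 0.18, -0.14 to 0.17 and -0.22 to 0.08. PSMD4 (0.08 ± 0.06), PSMD14 (-0.00 ± 0.07) and PSMF1 (-0.09 ± 0.08) had adjusted p between 0.531 and 0.986. Kasumi-1 control 2 had the highest value of its group in 40 of the 43 genes and also the highest FPKM sum of all samples. Without it the median log2 fold change of the set was 0.07.

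The change with OGP46 was not shown to differ between the lines for any proteasome gene. In one model of the 12 samples, no gene of the set and 0 of the 12309 genes tested passed the test of the interaction by limma at an adjusted p below 0.05. At an unadjusted p below 0.05, 9 of 43 proteasome genes (20.9%) differed, and all 9 had the higher log2 fold change in NB4. Of all genes 11.0% differed, 9.95% with the higher value in NB4. The smallest p were those of PSMC3 (difference 0.23 ± 0.07, adjusted p = 0.277), PSME1 (0.29 ± 0.10, adjusted p = 0.337) and PSMA7 (0.24 ± 0.08, adjusted p = 0.348). The median difference was 0.17 over the set and 0.12 over all genes. It was 0.028, 0.025 and 0.041 after scaling to one sum, median centring and quantile normalization, and 0.11 without Kasumi-1 control 2. With the replicate block no proteasome gene passed, against 1.93% of all genes.

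Between the lines without OGP46, single subunits differed in both directions. By limma, 8 of 43 proteasome genes passed at an adjusted p below 0.05 with a log2 difference of 0.58 or more, 6 higher and 2 lower in NB4. This was 18.6% of the set, against 52.4% of the 12302 genes tested (22.7% higher and 29.7% lower) and 42.3% of those whose mean reached 5 FPKM. At any fold, 28 of 43 passed (65.1% against 74.5% of all genes), 18 higher and 10 lower in NB4, with 33.1% higher and 41.4% lower over all genes. The median size of the log2 difference was 0.28 over the set and 0.64 over all genes, and 2 genes of the set (4.65%) differed by more than 2-fold, against 33.6% of all genes. The groups did not overlap in 28 of 43 genes, against 77.7% of all genes. Cell line and culture cannot be told apart here, as each line was grown and treated as its own set of samples.

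PSMG3, a chaperone of alpha ring assembly (chr7:1567332-1570032), differed most. It measured 32.6, 33.7 and 35.4 FPKM in the NB4 controls and 15.0, 15.5 and 13.6 FPKM in the Kasumi-1 controls, a log2 difference of 1.20 ± 0.08 with adjusted p = 1.13e-06. Its partner PSMG4 was also higher in NB4, by 0.48 ± 0.14 (adjusted p = 0.0115), while PSMG1 and PSMG2, the other pair of chaperones, differed by -0.16 ± 0.08 and -0.03 ± 0.06 (adjusted p = 0.106 and 0.644).

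PSME2, the beta chain of the interferon-inducible activator (chr14:24143365-24146610), measured 57.3, 58.6 and 45.8 FPKM in the NB4 controls and 23.6, 27.8 and 27.5 FPKM in the Kasumi-1 controls. The log2 difference was 1.03 ± 0.11 with adjusted p = 3.09e-05. PSME1, which joins PSME2 in the same ring, did not follow it, with 46.0, 49.3 and 46.3 FPKM in NB4 and 48.3, 55.4 and 54.4 FPKM in Kasumi-1 (-0.16 ± 0.07, adjusted p = 0.0852). PSME3, the nuclear activator, was higher in NB4 by 0.34 ± 0.08 (adjusted p = 0.00466) and PSME4 lower by 0.28 on the log2 scale (-0.28 ± 0.07, adjusted p = 0.00601). Both values hold for the FPKM as deposited. Scaling to one sum moved the all-gene median from -0.10 to 0.10, and whether PSME4 kept its call there is not given here.

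In the regulatory particle, the base scaffolds PSMD1 and PSMD2 went in opposite directions. PSMD1 (chr2:231056867-231172827) measured 31.2, 28.8 and 27.8 FPKM in the NB4 controls and 14.5, 16.9 and 15.2 FPKM in the Kasumi-1 controls, a log2 difference of 0.91 ± 0.08 with adjusted p = 9.96e-06. PSMD2 (chr3:184299241-184309050) measured 57.0, 58.4 and 52.3 FPKM in NB4 and 78.0, 88.4 and 86.6 FPKM in Kasumi-1, a log2 difference of -0.59 ± 0.08 with adjusted p = 1.03e-04. The NB4 samples were all above the Kasumi-1 samples for PSMD1 and all below them for PSMD2. PSMD7, which pairs with PSMD14 in the lid, was higher in NB4 with 77.7, 76.9 and 73.8 FPKM against 45.5, 51.1 and 46.2 FPKM (0.68 ± 0.07, adjusted p = 2.34e-05). PSMD14 itself differed by 0.14 ± 0.07 (adjusted p = 0.0959). The assembly chaperone PSMD9 was higher in NB4 by 0.71 ± 0.10 (adjusted p = 1.25e-04).

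The ATPases also split. PSMC5 (chr17:63827431-63832019) measured 48.4, 48.5 and 43.9 FPKM in the NB4 controls and 69.6, 83.8 and 76.6 FPKM in the Kasumi-1 controls, a log2 difference of -0.70 ± 0.08 with adjusted p = 6.34e-05. PSMC4 was lower in NB4 as well (-0.47 ± 0.09, adjusted p = 0.00131). PSMC2 (0.50 ± 0.10, adjusted p = 0.00193) and PSMC3 (0.18 ± 0.06, adjusted p = 0.0266) were higher in NB4. PSMC1 and PSMC6 did not pass. The results of PSMC1 to PSMC4 and PSMC6 hold for the FPKM as deposited, and those after scaling to one sum are not given here.

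Among the catalytic genes PSMB6 was higher in NB4 (0.56 ± 0.08, adjusted p = 2.23e-04). PSMB7 (-0.31 ± 0.08, adjusted p = 0.00747) and PSMB5 (-0.22 ± 0.09, adjusted p = 0.0439) were lower in NB4 in the FPKM as deposited. With the samples scaled to one sum, PSMB7 and PSMB5 differed by -0.10 and -0.02 and did not pass, while PSMB6 kept its call. PSMB5 also passed in only 2 of the 6 fits that left out 1 control sample, those without NB4 control 2 or Kasumi-1 control 3, and in the others its adjusted p ran from 0.0680 to 0.147. PSMB1, a beta subunit without a proteolytic site, was higher in NB4 by 0.63 ± 0.08 (adjusted p = 1.08e-04).

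The balance of higher and lower genes between the lines depended on the scale. Scaling to one sum left 13 genes past the threshold, all higher in NB4, and median centring left 11, all higher. Quantile normalization gave 6 higher and 2 lower. The shares of all genes called under these scalings are not given here, so the counts are not read as results about the set. PSMC5 and PSMD2 were lower in NB4 under each of these scalings, at -0.50 to -0.75 and -0.39 to -0.63, always with adjusted p below 0.05. PSMG3, PSME2, PSMD1, PSMD7 and PSMD9 were called higher under each of them. The all-gene median moved from -0.10 to 0.10 with scaling to one sum. The set's median stood above it by 0.17 in both cases, as this scaling moves the genes of a sample almost alike. After quantile normalization the set's median stood above it by 0.04.

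**Figure D3:**
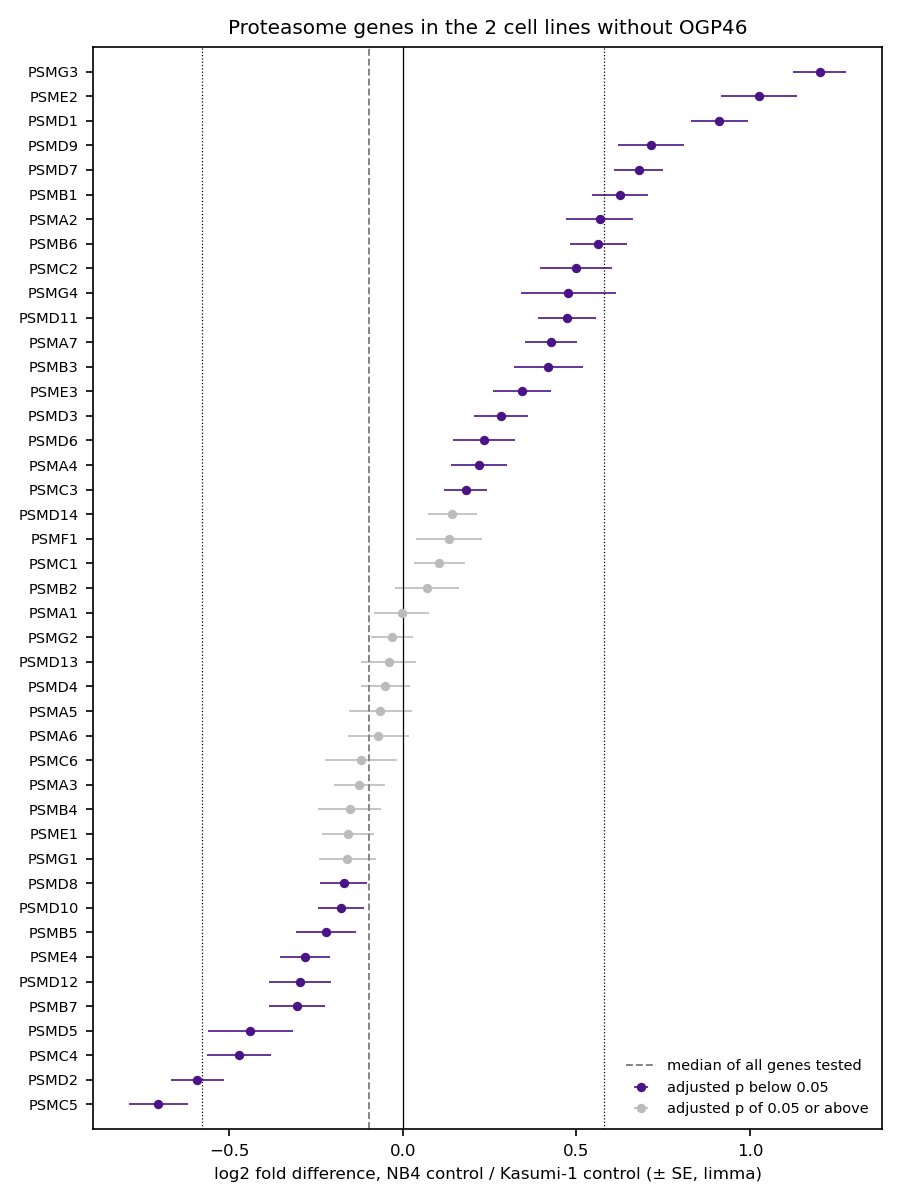
Log2 difference of NB4 controls against Kasumi-1 controls (points, bars for ± SE by limma, 3 samples per group) for 43 proteasome genes in order of size. Purple points have an adjusted p below 0.05, and they run from PSMC5 at -0.70 to PSMG3 at 1.20, on both sides of the median of all genes (dashed line, -0.10); dotted lines mark -0.58 and 0.58.

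The log2 differences of the 43 genes had an SD of 0.43 between the lines, with a median SE of 0.08. The SD was 0.09 for OGP46 in NB4 and 0.07 in Kasumi-1, with median SEs of 0.08 and 0.07. Over all genes tested these SDs were 1.58, 0.30 and 0.21. Multiplying all values of a sample by one factor leaves an SD over genes as it is, apart from the pseudocount.

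Summed over the set, proteasome mRNA made up 1.06% ± 0.0443 (SD, n = 3) of all FPKM in the NB4 controls and 1.09% ± 0.0342 with OGP46. In Kasumi-1 it made up 0.831% ± 0.0172 in the controls and 0.844% ± 0.0143 with OGP46. All NB4 samples had a larger share than all Kasumi-1 samples, and the OGP46 and control samples of each line overlapped. Such shares also depend on the most abundant genes of each line, and 5 primary granule genes alone summed to 9612 to 11917 FPKM in the Kasumi-1 controls and to 2605 to 3945 FPKM in the NB4 controls. The regulatory genes summed to 0.652 ± 0.0196 times the core genes in the NB4 controls and to 0.645 ± 0.00462 times with OGP46. In Kasumi-1 the ratio was 0.715 ± 0.0189 in the controls and 0.718 ± 0.0155 with OGP46. This ratio is formed within a sample, and it was lower in all NB4 samples than in all Kasumi-1 samples.

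**Figure D4:**
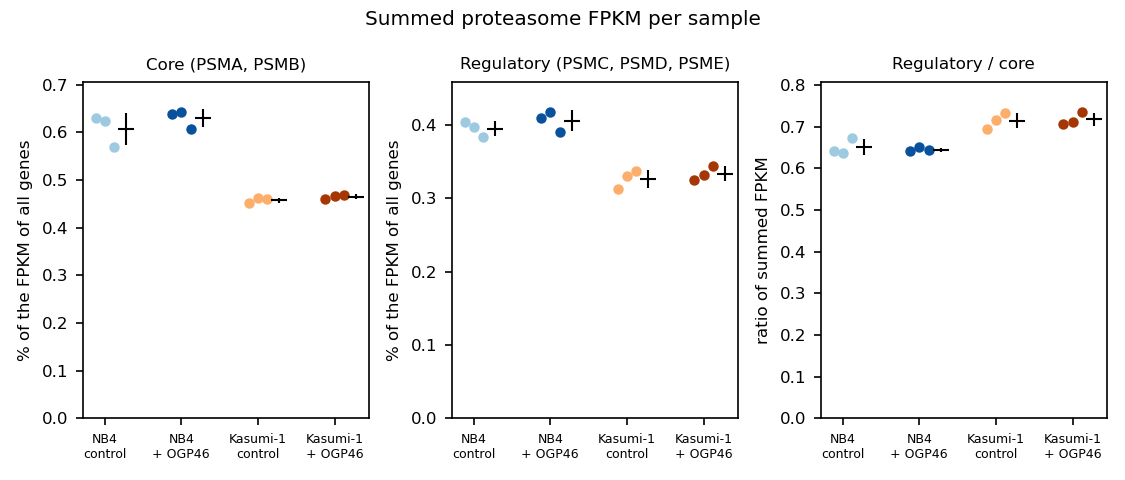
Summed FPKM of the core genes and of the regulatory genes as a percentage of the FPKM of all genes, and the ratio of regulatory to core genes, with coloured points for the 3 samples of each group and a black mark with bars for the mean ± SD. NB4 lies above Kasumi-1 in both shares and below it in the ratio, and OGP46 and control samples overlap within each line.

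The immunoproteasome genes, whose products replace the catalytic beta subunits after interferon, were higher in NB4. PSMB8 measured 23.5, 24.9 and 21.7 FPKM in the NB4 controls and 1.84, 2.06 and 3.39 FPKM in the Kasumi-1 controls (log2 difference 3.26 ± 0.19, adjusted p = 7.76e-07). PSMB9 measured 7.43 to 8.09 FPKM in the NB4 controls and was listed at 0 in 1 Kasumi-1 control and at no more than 0.196 FPKM in the others. PSMB10 was higher in NB4 by 0.49 ± 0.11 (adjusted p = 0.00372). With OGP46 none of them passed in either line, and PSMB9 was too low in Kasumi-1 to be tested there.

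Genes that work with the proteasome were compared as a list. Of 16 tested partner genes, such as deubiquitinases, adaptors and transcription factors of subunit genes, none passed in NB4 with OGP46, and the median log2 fold change was 0.20, against 0.18 over all genes. With the replicate block 4 of the 16 were higher, near the 21.0% of all genes. POMP, the maturation factor of the core, measured 109, 93.1 and 75.9 FPKM in the NB4 controls and 110, 118 and 131 FPKM with OGP46 (0.38 ± 0.13, adjusted p = 0.114). NFE2L1, the transcription factor that controls subunit genes, measured 27.7, 22.3 and 25.4 FPKM in the controls and 37.8, 28.1 and 31.5 FPKM with OGP46 (0.36 ± 0.13, adjusted p = 0.115). For both genes the treated samples were above the controls, and the block gave adjusted p = 0.0380 and 0.0108. The treated samples of POMP were above the controls in Kasumi-1 too (0.18 ± 0.07, adjusted p = 0.261). Those of NFE2L1 overlapped the controls there (0.09 ± 0.06, adjusted p = 0.522). AKIRIN2, which is needed to bring proteasomes into the nucleus, is named after its values were seen, as it had the largest change of the list. It measured 26.6, 20.9 and 22.9 FPKM in the NB4 controls and 34.5, 29.8 and 35.9 FPKM with OGP46 (0.51 ± 0.11, adjusted p = 0.0564, and 0.00230 with the block). In Kasumi-1 its log2 fold change was -0.09 ± 0.07, and the difference between the lines, 0.60 ± 0.14, had adjusted p = 0.143 without the block and 0.0209 with it.

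Between the controls of the lines, 6 of the 16 partner genes were higher and 7 lower in NB4, where 33.1% of all genes were higher and 41.4% lower. POMP was higher in NB4 by 1.51 ± 0.13 (adjusted p = 6.53e-06), with 29.1 to 34.3 FPKM in the Kasumi-1 controls. ZFAND5, which activates the proteasome, was lower (-1.22 ± 0.09), and so was ECPAS, a proteasome adaptor (-0.89 ± 0.07). Beside the partner list, 3 genes of ubiquitin supply are named by their small p, and they say nothing of the others. VCP, the ATPase that extracts ubiquitinated proteins, was higher in NB4 by 0.96 ± 0.08 and the polyubiquitin gene UBB by 0.86 ± 0.07, while the ubiquitin-activating enzyme UBA6 was lower (-1.49 ± 0.11). The adjusted p of ZFAND5, ECPAS, VCP, UBB and UBA6 lay between 2.25e-06 and 5.24e-06. NFE2L1 did not pass (-0.15 ± 0.09, adjusted p = 0.175).

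Other lists were read beside the proteasome genes in the same fits. Of 10 NRF2 target genes, 6 were up-regulated in NB4 with OGP46 at any fold change and 1 in Kasumi-1, with median log2 fold changes of 0.70 and 0.39. With the replicate block these counts were 9 and 3. Of all genes, 2.46% were higher in NB4 and 0.0507% in Kasumi-1 at any fold change. With the block these shares were 21.0% and 2.44%. Of 16 proliferation genes, none passed in either line (medians 0.10 and -0.04). With the block 4 were higher in NB4, near the 21.0% of all genes, and none differed in Kasumi-1. Of 11 tested monocyte and macrophage genes, 5 were up-regulated in NB4, while their summed FPKM was 289 to 416 in the controls and 298 to 412 with OGP46. None of 8 passed in Kasumi-1, with sums of 49.7 to 68.9 and 63.7 to 72.5 FPKM, and the block gave 8 in NB4 and 1 in Kasumi-1. None of the 5 primary granule genes passed in NB4 (median -1.36) or in Kasumi-1 (median -0.39). With the block all 5 were lower in NB4 and 3 in Kasumi-1, where 1.88% and 1.12% of all genes were lower. The part of these lists in the values of the proteasome genes was not tested.

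The promoters of the members were searched for the antioxidant response element, the letters TGACNNNGC, which NFE2L1 and NRF2 bind. The windows are the RefSeq promoters of GRCh38.p14, 250 bases before to 50 bases after each gene's start, read on both strands. Of the 45 genes, 39 had an entry, with 47 promoters. The motif was in 14 of the 47 (29.8%), against 13.3% of 35116 promoters of all genes. CCAAT, the letters of the NF-Y site, was in 19 of the 47 (40.4%), against 34.6%. The genes with TGACNNNGC had a median log2 fold change of 0.15 in NB4 over 14 genes, and those without it 0.15 over 23 genes. In Kasumi-1 the medians were -0.00 and 0.01. Between the lines they were -0.09 with the motif and 0.07 without it. A match of letters is no evidence of binding.

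The matches of 6 regulatory genes are shown, chosen after their values were seen because they were among those that differed most with OGP46 in NB4 (PSMC4 and PSMD5) or between the lines (PSMD1, PSMC5, PSMD9 and PSME2). Each line holds 30 bases on the gene's strand, 5′ to 3′, with the match in capitals.
PSMC4, match on the opposite strand: acagaggccgGCTTGGTCActatggaggag
PSMD5, match on the gene's strand: tggctacagtTGACACGGCcctaacggagg
PSMD1, match on the gene's strand: ggcggcctgaggaggcgacTGACTGAGCag
PSMC5, match on the opposite strand: gaccggatctGCTGTGTCAgcgccgccctc
PSMD9, first match, on the opposite strand: cgctactcctGCCGGGTCAccacaggcgca
PSMD9, second match, on the gene's strand: cggcttccggTGACCCAGCtccgccctaag
PSME2, match on the gene's strand: ccctggactgTGACCCAGCcagcaccgcct
The windows are chr19:39971182-39971211 on the plus strand for PSMC4, chr9:120843037-120843066 on the minus strand for PSMD5, chr2:231056887-231056916 on the plus strand for PSMD1 and chr17:63827654-63827683 on the plus strand for PSMC5. Those of PSMD9 are chr12:121888631-121888660 and chr12:121888678-121888707 on the plus strand, and that of PSME2 is chr14:24146766-24146795 on the minus strand. The first capital lies 134 bases before the start for PSMD5, 149 and 102 for PSMD9 and 175 for PSME2. PSMC5 has 2 promoter entries, and its match lies 57 bases before the later start, position 63827721, which is inside the gene's interval given above. It is base 28 after the start for PSMC4 and base 40 for PSMD1. PSMD9 and PSME2 hold the same TGACCCAGC. PSMC5 and PSMD1 each hold 1 match and differed between the lines in opposite directions.

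PSMD5, with the highest log2 fold change of the non-ATPase genes in NB4, is given with its whole upstream window as context. It measured 13.7, 10.1 and 11.2 FPKM in the NB4 controls and 14.5, 14.1 and 14.6 FPKM with OGP46 (0.31 ± 0.12, adjusted p = 0.125, and 0.0407 with the block). All treated samples were above the controls, and the controls spread more than the treated samples. The window is chr9:120842923-120843172 on the minus strand, with the match in capitals.
PSMD5 upstream: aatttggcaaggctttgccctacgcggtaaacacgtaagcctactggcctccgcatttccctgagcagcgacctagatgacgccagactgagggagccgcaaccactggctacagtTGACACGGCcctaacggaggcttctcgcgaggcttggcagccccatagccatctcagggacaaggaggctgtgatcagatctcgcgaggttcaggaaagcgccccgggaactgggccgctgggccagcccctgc

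Some single values are uncertain because genes share sequence or overlap. In GENCODE release 29, 12 of the 45 genes have pseudogenes named after them, 32 in all, and PSMC1 alone has 13. Exons of another gene overlap those of 6 members on the same strand and of 17 members on the opposite strand. Of the 8 genes past the threshold between the lines, 6 have such an overlap, and its part in their differences was not tested. PSMD9 shares exon sequence with WDR66 on its own strand, and PSME2 with the microRNA gene MIR7703. On the opposite strand PSME2 overlaps RNF31, PSMC5 overlaps FTSJ3, PSMD1 overlaps HTR2B and PSMG3 overlaps PSMG3-AS1, while PSMD7 overlaps a transcript without a gene name. The library kit kept strand, and whether the quantification used it is not given in the sources used here.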

How the data were processed

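Libraries of poly(A) RNA from 12 samples were made by the authors with a stranded kit and sequenced on an Illumina instrument. The deposited values are FPKM per gene symbol, estimated by the authors. The submitters' processing notes name Trimmomatic, HISAT2, Cufflinks, HTSeq and hg38 without roles, and the annotation is not given in the sources used here. Raw counts were not used, so depth is unknown and no counting error is given. FPKM already divide by length and library total, yet their sums differ between samples and move every fold change alike.

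Here 27 symbols turned into dates were left out. Groups are cell line and treatment as labelled. log2(FPKM + 0.1) was compared by limma version 3.58.1 with a trend in R version 4.3.3, for genes whose mean reached 0.1 FPKM, with Benjamini-Hochberg adjustment over all genes tested. Fold changes are on this log2 scale, which understates changes of low genes. Calls used adjusted p below 0.05, with or without a log2 fold change of at least 0.58 (1.49-fold). The fits were tested on simulated data.

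The labels do not say whether the numbers 1 to 3 pair the control and OGP46 samples of a line. Over all genes tested, same-numbered samples deviated together, with r of 0.197 to 0.622 in NB4 and 0.157 to 0.396 in Kasumi-1. Differently numbered samples gave -0.468 to 0.224 in NB4 and -0.278 to 0.101 in Kasumi-1, so the NB4 ranges overlap. Over the members, the NB4 samples numbered 1, 2 and 3 gave r = 0.369, 0.611 and -0.111, and differently numbered ones at most 0.118. In Kasumi-1 the members gave 0.299 to 0.500, against at most 0.065. The main fits had no block, as the study names none. If the numbers do mark pairs, these fits leave that pairing out. In NB4, the block raised calls at any fold change from 2.57% to 22.9% of all genes and from 0 to 6 members.

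Members and lists were chosen with earlier results of these data known. All members were accounted for. Some genes of ubiquitin supply are not reported here, so no counts are given for that list. Genes named by rule are PSMB5, PSMB6 and PSMB7, and up to 6 members past the adjusted p per comparison (or the 3 with the smallest p). To these come the highest and lowest core, ATPase, non-ATPase and activator genes, PSMD4, PSMD14, PSMF1, POMP, NFE2L1 and up to 6 list genes that passed. Some of them are given by means or log2 differences only, without the value of each sample. PSMD5, PSMD9, PSMB1 and other members named beside these were chosen after their values were seen. Alternatives were other pseudocounts (1 and 0.01), filters (none, or 1 FPKM) and scalings, no trend, the block, a joint model and leaving out each sample. Figures were drawn with matplotlib version 3.10.9.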

Additional observations from a re-analysis of the deposited data

How the results depend on the processing

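With OGP46 in NB4, no member passed at a log2 fold change of 0.58 under any alternative run. At any fold change, 6 passed with the replicate block, against 22.9% of all genes, and 8 in the joint model of 12 samples (all higher in both). With the block and median centring together 1 passed, PSMG1, lower. Shares of all genes are not given here for the joint model or for the block with centring. Those counts are therefore not read as results about the set. The NB4 median of 0.15 became 0.026 with scaling to one sum (TPM scaling), -0.068 with median centring, alone or with the block, and 0.013 with quantile normalization. Leaving out 1 sample gave 0.11 to 0.20. In Kasumi-1, the block with median centring left 4 members lower (PSMA7, PSMD3, PSME1 and PSMG3), again without a share of all genes beside it. The Kasumi-1 median of 0.01 became -0.056 with median centring, alone or with the block, and -0.013 to 0.071 when 1 sample was left out, with 0.071 without control 2. The median of the interaction, 0.17, became 0.028, 0.025 (alone or with the block) and 0.041 under the same scalings and 0.11 to 0.20 when 1 sample was left out. Between the control lines, 13 members in place of 8 passed at 0.58 with TPM scaling. Leaving out 1 sample gave 7 to 10, and shares of all genes are again not given for these counts. The median of 0.07 became 0.27 with TPM scaling and 0.21 with median centring, alone or with the block, and 0.02 to 0.14 when 1 sample was left out. PSMD4, at -0.05 and not called between the lines, passed at 0.15 with TPM scaling. The causes were not tested. Scaling to one sum and median centring move all genes of a sample alike, apart from the pseudocount, and quantile normalization does not. Across lines the same number marked no shared deviation, and the block there gave 8 and 27 members in place of 8 and 28. At an unadjusted p below 0.05 the block gave 3 members in place of 2 in Kasumi-1 and 29 in place of 28 between the lines. It changed no other count of members at an adjusted p below 0.05.

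Of all genes, 2.57% were called at any fold change in NB4. Leaving out OGP46 sample 2 gave 4.41%, and leaving out any other NB4 sample left at most 2 genes, so 0 members in those fits says little. With 3 samples per group, an exact permutation test of 1 gene cannot go below p = 0.10. Members below about 1 FPKM, such as PSMG4, rest on few fragments at an unknown depth.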
